A study of Homo sapiens with 8 samples.

Results

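The heat shock proteins and DNAJ cochaperones described here are 74 protein-coding genes of the 57820 genes counted. They were chosen by name: the HSP70, HSP90 and small heat shock protein genes, the DNAJA, DNAJB and DNAJC genes, the mitochondrial chaperonin pair HSPD1 and HSPE1, the exchange factor HSPH1, and the heat shock factors HSF1 and HSF2. No measured value entered the choice. J82, a long-established line of human bladder cancer cells, was profiled by RNA-seq after flow sorting into side population (SP) and non-side population (NSP) cells. SP cells pump out the DNA dye Hoechst and stay dim, and NSP cells are the remaining, brightly stained cells. Both populations were unmodified J82 cells grown in the same serum-containing medium, warmed with the dye and sorted, with no drug treatment stated for these libraries. There were 4 SP and 4 NSP libraries, numbered 1 to 4 in each group, and the comparison asks which genes differ between drug-resistant SP cells and NSP cells. The labels do not say whether the numbers stand for separate cultures or sorts, so each p-value measures only the spread between these libraries. In a sorted bulk sample, fewer cells carrying an RNA and less RNA per cell cannot be told apart.

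Heat shock proteins bind unfolded or partly folded proteins and let them fold, be held, be carried across membranes or be degraded. HSP70 works in a cycle of ATP binding and release: a J protein (the DNAJ family) brings the client and starts ATP hydrolysis, and an exchange factor such as HSPH1 or a BAG protein opens HSP70 again. HSP90 takes over partly folded clients, many of them kinases and hormone receptors, and HSF1 is the transcription factor that raises many of these genes when proteins unfold. Cancer cells are known for leaning on cytosolic HSP70, HSP90 and HSF1.

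Libraries held 1431823 to 1697218 counts in SP and 1489033 to 2073526 counts in NSP cells, and the 74 genes together held 0.302% of all counts. Values are given as CPM, counts scaled to a common library size after TMM normalization, and levels of different genes are compared only as CPM per kb of exon. Mitochondrially encoded genes moved with the groups: 12 of 13 were called higher in SP cells, with summed levels of 29992 to 70816 CPM in SP and 13979 to 35237 CPM in NSP libraries. The epithelial keratin KRT8 (47783 counts over the 8 libraries), KRT18 and the mesenchymal VIM were present, EPCAM had 3 counts, and UPK3A, a marker of differentiated urothelium, had none. All 5 tested epithelial and mesenchymal markers had negative log2 fold changes: KRT7 was called lower in SP cells (-1.35, edgeR adjusted p = 0.00342), and VIM (-0.76, adjusted p = 0.0784) was called lower with the replicate number as a block (-0.75, adjusted p = 3.39e-06). Genes across them on the other strand held more counts per kb, 17148 for KRT7-AS against 1558 for KRT7, and 24911 for VIM-AS1 against 1111 for VIM. KRT7-AS (-1.58, edgeR adjusted p = 9.48e-04) and VIM-AS1 (-0.94, adjusted p = 0.0215) were lower in SP cells too. The leukocyte genes PTPRC and CD3E had no count, and summed leukocyte markers were 4.33 to 13 CPM in SP and 5.53 to 10.6 CPM in NSP libraries. Fibroblast markers summed to 76.6 to 138 CPM in SP and 13.3 to 46.4 CPM in NSP libraries, mostly from COL1A2, while DCN had no count. ABCB1, a pump that exports Hoechst, was called higher in SP cells (log2 fold change 2.96, edgeR adjusted p = 7.44e-04). Of 13 tested immediate early genes, which respond within minutes to stress and to handling, 1 was called higher (ATF3), with summed levels of 905 to 1113 CPM in SP and 709 to 1002 CPM in NSP libraries. In a fit that also carried the replicate number as a block, 5 immediate early genes were called higher and 1 lower. What part any of these had in the values below was not tested.

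HSF1 acts through heat shock elements in promoters, and the sequences below show where the member genes held a strict form of one. A heat shock element was searched on both strands as 3 units, GAA and TTC by turns, 2 bases apart, in windows from 250 bases before to 50 bases after each RefSeq gene start (GRCh38.p14). It was found in 172 of 35116 windows of all genes (0.490%) and in 7 of 85 windows of the members, which belonged to 7 of the 65 member genes with a window. These were DNAJA1, DNAJB6, HSP90AA1, HSP90AB1, HSPA6, HSPA8 and HSPD1. Of the 7, 6 had enough counts for a test between SP and NSP cells, and HSPA6 did not. The element is in capitals, each sequence reads 5′ to 3′ on the gene's strand, and flanks are at most 20 bases.
HSPA8, chr11:123062159-123062211 (− strand): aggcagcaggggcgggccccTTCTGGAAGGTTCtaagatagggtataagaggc
HSPA8, chr11:123062334-123062386 (− strand): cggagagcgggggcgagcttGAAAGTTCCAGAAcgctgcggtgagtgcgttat
HSP90AA1, chr14:102087100-102087152 (− strand): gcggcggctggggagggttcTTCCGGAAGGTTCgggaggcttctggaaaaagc
HSP90AB1, chr6:44247758-44247810 (+ strand): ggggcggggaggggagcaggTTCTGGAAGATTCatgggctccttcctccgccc
HSP90AB1, chr6:44247811-44247863 (+ strand): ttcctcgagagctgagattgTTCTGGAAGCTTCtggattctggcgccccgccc
HSPD1, chr2:197500053-197500090 (− strand): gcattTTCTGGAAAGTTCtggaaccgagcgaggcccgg
DNAJA1, chr9:33025256-33025308 (+ strand): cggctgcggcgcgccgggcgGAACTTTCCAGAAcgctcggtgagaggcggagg
DNAJB6, chr7:157336853-157336905 (+ strand): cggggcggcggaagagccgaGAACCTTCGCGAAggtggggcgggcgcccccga
HSPA6, chr1:161524446-161524498 (+ strand): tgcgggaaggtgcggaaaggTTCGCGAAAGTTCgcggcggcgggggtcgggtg
The nearer HSPA8 element ends 42 bases before the gene start and the HSP90AA1 element 75 bases before it. HSPD1 held a second match that overlaps the one shown. A match is a string of letters and says nothing about binding in these cells. A gene without a match may still carry an element in a looser form or outside the window.

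The ER chaperones are known to be raised by ER stress through another element, which was searched as CCAAT and, 9 bases on, CCACG, on both strands. It was present in 27 of the 35116 windows (0.0769%), and 2 of the member genes held it. These were HSPA5 (BiP), the HSP70 of the ER, and HSP90B1 (GRP94), its HSP90.
HSPA5, chr9:125241371-125241429 (− strand): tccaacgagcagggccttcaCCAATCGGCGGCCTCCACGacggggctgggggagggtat
HSP90B1, chr12:103930196-103930254 (+ strand): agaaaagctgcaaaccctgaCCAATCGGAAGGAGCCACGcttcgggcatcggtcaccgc
HSP90B1, chr12:103930301-103930359 (+ strand): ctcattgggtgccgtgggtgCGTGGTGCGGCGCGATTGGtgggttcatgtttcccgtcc
The second HSP90B1 match is on the other strand, so its capitals read as the reverse complement. SP and NSP levels of the genes with either element are given with their families below.

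Of the 74 genes, 43 had enough counts for the test, 25 had counts but too few, and 6 had none in any library. The strand setting of the counting is not given in the sources used here. Each level below may therefore hold reads of another transcript or miss reads of the gene. HSPB1 (HSP27), the small heat shock protein that holds unfolded clients, had the highest level, with a mean of 335 CPM per kb in SP and 296 CPM per kb in NSP cells. HSP90AB1, the constitutive cytosolic HSP90, followed with 64.0 and 72.6 CPM per kb, and HSPA5 with 46.8 and 43.1 CPM per kb. The next 5 levels were close together. HSPA1B stood at 35.1 and 42.8, HSP90AA1 at 34.9 and 34.2, and DNAJA1, a J protein of cytosolic HSP70, at 33.4 and 28.9 CPM per kb in SP and NSP cells. The transcription factor HSF1 followed at 30.1 and 27.8, and HSPA8, the constitutive cytosolic HSP70, at 28.3 and 28.3 CPM per kb. In these genes the spread between libraries was wider than the steps between them. At the low end, DNAJC10, an ER disulfide reductase with a J domain, stood at 0.557 and 0.426 CPM per kb.

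**Figure D1:**
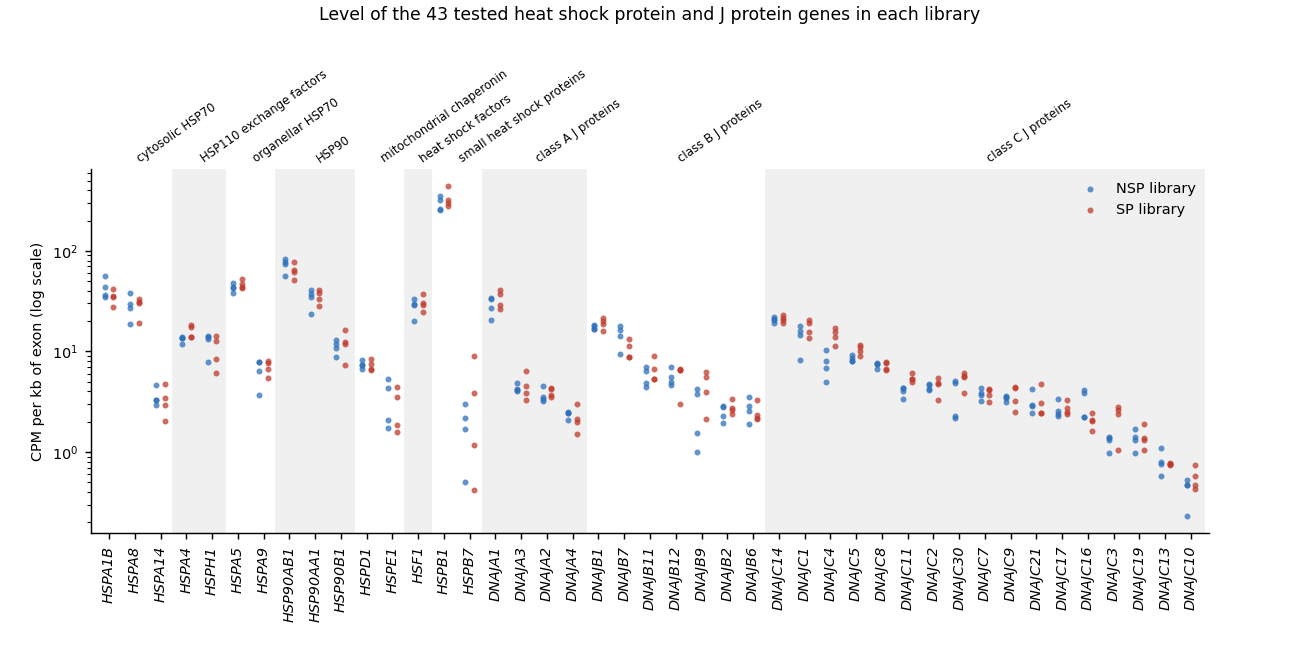
CPM per kb of exon (log scale) of the 43 tested members, 1 point per library, ordered by role and then by level, with NSP libraries in blue and SP libraries in red. HSPB1 stands above the other members in all 8 libraries, and in nearly every gene the red and blue points share a range.

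In edgeR's quasi-likelihood test, 1 of the 43 tested members was called higher and 0 lower in SP than in NSP cells, where a call needs an adjusted p under 0.05 and a fold change over 1.3. Over all 9309 tested genes, 1.63% were called higher and 2.03% lower, so the share of members called was near that of all genes. The called member was DNAJC4. DESeq2 and limma voom each called DNAJC4 alone as well. At an unadjusted p under 0.05 there were 3 members higher (DNAJC4, DNAJC11 and DNAJC3) and 1 lower (DNAJC16). The median log2 fold change of the tested members was 0.06, beside 0.01 over all tested genes. The log2 fold change was positive in 30 and negative in 13 members, beside 4819 and 4490 of all tested genes. It lay within 1.3-fold in 35 of the 43 members (81.4%, beside 70.6% of all tested genes). The 95% confidence interval lay within 2-fold in 35 members (81.4%, beside 72.9% of all tested genes) and within 1.5-fold in 18 (41.9%, beside 24.3%), so for the other 25 a change of 1.5-fold was not excluded by the interval. The fit with a replicate block called 5.89% of all tested genes higher and 7.00% lower, and DNAJC4 was the only member it called.

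**Figure D2:**
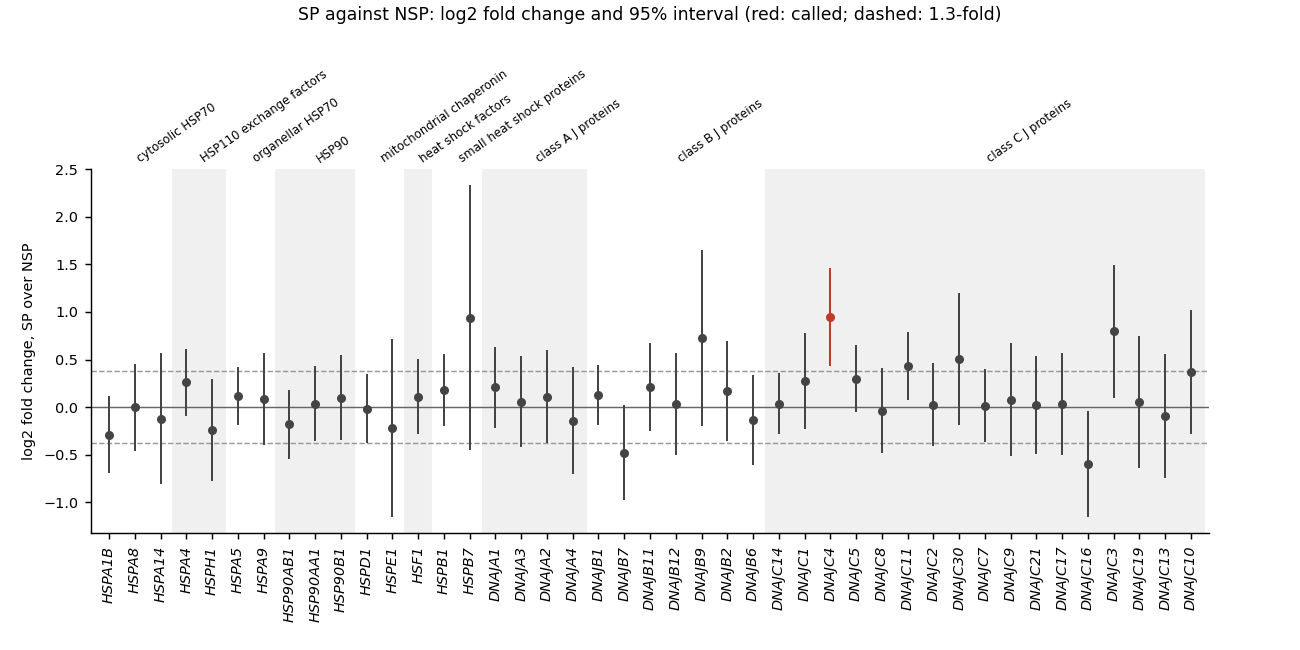
Log2 fold change of SP over NSP with its 95% confidence interval for the 43 tested members, ordered by role. The red point is DNAJC4, the only called member, at 0.95, and the dashed lines mark 1.3-fold in each direction.

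DNAJC4 is a class C J protein with a transmembrane segment and little known function. It lies at chr11:63997750-64001758 (GRCh37, + strand) and had 391 counts. Its level was 48.3, 31.5, 39.0 and 44.2 CPM in SP libraries 1 to 4 and 28.7, 13.8, 19.1 and 22.8 CPM in NSP libraries 1 to 4. Every SP library stood above every NSP library, and the SP library was higher in 4 of 4 pairs of equal number. The mean was 40.7 ± 7.23 CPM (SD, n = 4) in SP and 21.1 ± 6.27 CPM (SD, n = 4) in NSP cells. The log2 fold change was 0.95 (SE 0.24, 95% interval 0.44 to 1.45, edgeR adjusted p = 0.0365), and 0.96 with the replicate block (adjusted p = 1.30e-04). On log2(CPM + 1), an exact permutation test (two-sided) gave p = 0.0286, the smallest that 4 libraries against 4 allow. Any gene whose groups do not overlap gets this value. DNAJC4 was also called with the mitochondrially encoded genes left out before scaling (log2 fold change 0.94, edgeR adjusted p = 0.0361). The call rested on the full set of libraries: without any 1 of SP 1, SP 3, SP 4, NSP 2, NSP 3 and NSP 4 the edgeR adjusted p was between 0.0564 and 0.124. The log2 fold change stayed between 0.77 and 1.14 when each of the 8 libraries was left out in turn.

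DNAJC4 shares sequence and position with other counted genes. An exon stretch of 297 bases on the same strand also belongs to NUDT22 (474 counts, log2 fold change 0.68, edgeR adjusted p = 0.101, and 0.70 with adjusted p = 0.00407 and a call under the replicate block), and 8.07% of the 50-base windows of DNAJC4 also occur in NUDT22. On the other strand, the lncRNA ENSG00000256116 (chr11:63996686-64001824, GRCh37) spans DNAJC4 from end to end and overlaps its exons by 93 bases. The lncRNA had 3887 counts per kb, beside 139 counts per kb for DNAJC4. The lncRNA's log2 fold change was 0.41 (edgeR adjusted p = 0.203), and it too was called under the replicate block (0.41, adjusted p = 0.0223). Both genes were higher in SP cells in 4 of 4 pairs, the direction of DNAJC4. The part of either gene's reads in the DNAJC4 counts, or of DNAJC4 reads in theirs, was not tested. Neither of the 2 RefSeq promoter windows of DNAJC4 held a searched element. The upstream one is shown because DNAJC4 is the called gene, with the 50 bases after the start in capitals.
DNAJC4, chr11:64230182-64230481 (GRCh38.p14, + strand): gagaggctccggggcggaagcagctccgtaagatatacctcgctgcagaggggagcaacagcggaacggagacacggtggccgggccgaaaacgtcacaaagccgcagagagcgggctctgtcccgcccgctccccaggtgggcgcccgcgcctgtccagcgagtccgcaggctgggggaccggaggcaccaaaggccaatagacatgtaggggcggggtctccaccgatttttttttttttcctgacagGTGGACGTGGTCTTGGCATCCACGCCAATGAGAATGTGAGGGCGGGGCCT

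DNAJC11 was the other tested member whose groups did not overlap. It is a J protein of the mitochondrial outer membrane that takes part in building the cristae, and it lies at chr1:6694228-6761984 (GRCh37). Its level was 74.2, 60.3, 65.5 and 65.5 CPM in SP libraries 1 to 4 and 41.0, 52.8, 49.7 and 53.2 CPM in NSP libraries 1 to 4. Every SP library was again above every NSP library. The log2 fold change was 0.43 (SE 0.16, 95% interval 0.08 to 0.78), which missed the threshold (edgeR adjusted p = 0.190, and 0.0604 with the replicate block). The exact permutation p of 0.0286 adds nothing, as it follows from the lack of overlap for which DNAJC11 was named. Such separation, SP above NSP in all libraries, was seen in 4.78% of all tested genes and in 2 of 43 tested members, and the opposite in 4.97% of genes and in 0 members. DNAJC11 stands across THAP3 on the other strand, which had 2740 counts per kb against 60.9 counts per kb for DNAJC11 and a log2 fold change of 0.08 (edgeR adjusted p = 0.835).

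**Figure D3:**
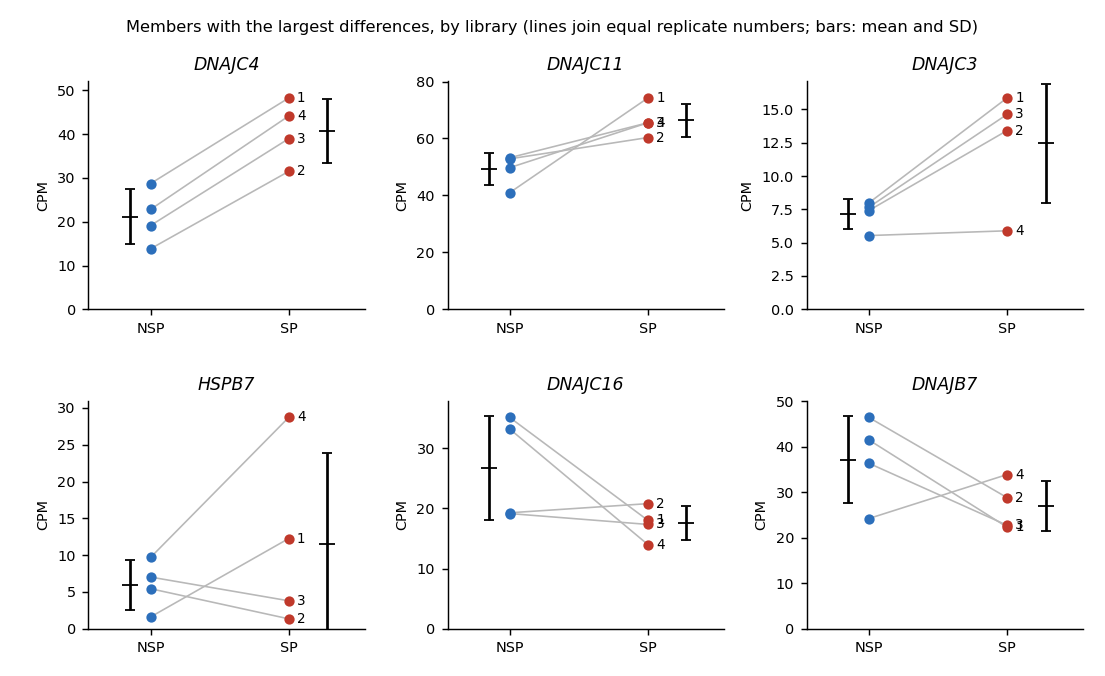
CPM of DNAJC4, DNAJC11 and the members with the largest log2 fold changes in either direction, in each NSP (blue) and SP (red) library. Lines join equal replicate numbers and black bars give the mean and SD of 4 libraries (the SD of HSPB7 in SP cells reaches below 0 and is cut at the axis). DNAJC4 and DNAJC11 are the panels in which no SP point lies at or below an NSP point.

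None of the 3 tested cytosolic HSP70 genes was called. Their log2 fold changes were -0.29 for HSPA1B, -0.12 for HSPA14 and -0.0013 for HSPA8, the last turning positive under upper-quartile scaling, limma voom and the replicate block. HSPA8 was at 161, 92.5, 146 and 149 CPM in SP libraries 1 to 4 and at 183, 91.4, 132 and 142 CPM in NSP libraries 1 to 4. The groups covered the same range, with replicate 2 the lowest of both. The mean of HSPA8 was 137 ± 30.3 CPM (SD, n = 4) in SP and 137 ± 37.6 CPM (SD, n = 4) in NSP cells, with a 95% interval of the log2 fold change from -0.45 to 0.45. HSPA1B, a stress-induced HSP70, was at 105, 70.4, 90.4 and 87.6 CPM in SP and 142, 90.9, 110 and 87.8 CPM in NSP libraries. It was lower in SP cells in 4 of 4 pairs, though the groups overlapped, and its log2 fold change was -0.29 (SE 0.19, edgeR adjusted p = 0.482). HSPA1A, its near-identical neighbour, had 6 counts against 1288 for HSPA1B, and 73.7% of its 50-base windows also occur in HSPA1B, so how reads were split between these genes is uncertain. The strictly stress-induced HSPA6 had 7 counts, and 45.8% of its windows also occur in its pseudogene HSPA7. HSPA14, a ribosome-associated HSP70, had a log2 fold change of -0.12 with a wide interval of -0.80 to 0.55.

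The HSP110 exchange factors, which reopen HSP70, pointed in different directions and neither tested gene was called. HSPH1 was at 119, 50.9, 108 and 71.4 CPM in SP and 120, 65.2, 118 and 111 CPM in NSP libraries. The SP library was lower in 4 of 4 pairs, and replicate 2 was the lowest of each group. Its log2 fold change was -0.24 (SE 0.25, edgeR adjusted p = 0.70). HSPA4 was at 93.7, 71.0, 89.3 and 69.9 CPM in SP and 69.7, 71.1, 69.5 and 60.2 CPM in NSP libraries, with a log2 fold change of 0.26 (SE 0.16, edgeR adjusted p = 0.462). SP libraries 1 and 3 of HSPA4 lay above all NSP libraries and the other 2 among them.

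None of the 3 HSP90 genes, all tested, was called. HSP90AA1, the inducible cytosolic form, was at 171, 143, 206 and 192 CPM in SP and 178, 121, 188 and 210 CPM in NSP libraries. Its log2 fold change was 0.04 with a 95% interval of -0.35 to 0.42. HSP90AB1 was at 192, 154, 231 and 185 CPM in SP and 248, 168, 219 and 231 CPM in NSP libraries. It was lower in SP cells in 3 of 4 pairs, with a log2 fold change of -0.18 (SE 0.17, edgeR adjusted p = 0.653). For these genes 11.6% and 16.6% of the 50-base windows also occur elsewhere among annotated transcripts, mainly in pseudogenes of each.

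In the ER, HSPA5 was at 347, 286, 280 and 308 CPM in SP and 284, 279, 250 and 313 CPM in NSP libraries. Its groups overlapped, and the log2 fold change was 0.12 (SE 0.14, edgeR adjusted p = 0.744). HSP90B1 had 161, 155, 96.9 and 213 CPM in SP and 116, 156, 142 and 169 CPM in NSP libraries, and a log2 fold change of 0.10 (edgeR adjusted p = 0.865). A list of J proteins of the ER, which hand clients to HSPA5, held 6 genes, 5 of them tested, and does not cover every J protein there. It was chosen with earlier results of these data known, so a shared sign within it is not a test. All 5 log2 fold changes were positive, with a median of 0.37 beside 0.01 over all tested genes, but edgeR called none and 1 had an unadjusted p under 0.05. DNAJC16, an ER membrane protein that this list leaves out, had the lowest log2 fold change of all tested members, -0.60. The gene with that p was DNAJC3 (p58IPK), a J protein that also inhibits the stress kinase PERK: 15.9, 13.4, 14.6 and 5.9 CPM in SP and 8.0, 7.4, 7.7 and 5.5 CPM in NSP libraries. SP libraries 1 to 3 lay above all NSP libraries and SP library 4 among them, giving 0.80 (SE 0.32, edgeR adjusted p = 0.224, exact permutation p = 0.114). DNAJB9 (ERdj4), a J protein that keeps the stress sensor IRE1 quiet, was at 15.9, 10.1, 5.4 and 14.0 CPM in SP and 10.6, 4.0, 2.6 and 9.7 CPM in NSP libraries. It was higher in SP cells in 4 of 4 pairs although the groups overlapped, with a log2 fold change of 0.73 (SE 0.43, edgeR adjusted p = 0.437, and 0.10 with the replicate block).

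None of the mitochondrial chaperones named in this paragraph was called, while the median log2 fold change of the mitochondrially encoded genes was 1.42. HSPD1 (HSP60) was at 64.8, 50.9, 56.9 and 50.1 CPM in SP and 55.3, 55.8, 63.1 and 51.2 CPM in NSP libraries. Its log2 fold change was -0.02 with an interval of -0.37 to 0.33. Its partner ring HSPE1 (HSP10) had only 74 counts and an interval of -1.14 to 0.71. HSPA9 (mortalin), the HSP70 that pulls proteins into the matrix, was at 77.8, 65.0, 53.6 and 74.3 CPM in SP and 77.7, 76.5, 35.7 and 62.9 CPM in NSP libraries. Replicate 3 was the lowest of both groups, and the log2 fold change was 0.09 (SE 0.22, edgeR adjusted p = 0.895). DNAJA3 (Tid1), the matrix J protein, had a log2 fold change of 0.06, and DNAJC19 of the import motor one of 0.06. The value of DNAJC11, described above, was 0.43, and that of DNAJC30, another mitochondrial J protein, was 0.50 (SE 0.32, edgeR adjusted p = 0.481). Its SP level was above the NSP level in 4 of 4 pairs, with overlapping groups.

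Among small heat shock proteins, HSPB1 was at 453, 517, 723 and 482 CPM in SP and 519, 425, 564 and 414 CPM in NSP libraries. SP library 3 was the highest of all, and the log2 fold change was 0.18 (SE 0.17, edgeR adjusted p = 0.669). HSPB7, best known from heart muscle, had few counts (104) and the widest spread: 12.2, 1.3, 3.8 and 28.7 CPM in SP and 1.6, 5.4, 7.0 and 9.7 CPM in NSP libraries. Its log2 fold change of 0.94 (SE 0.65, edgeR adjusted p = 0.517) rested on SP library 4 and was -0.04 without it. HSF1 was at 197, 152, 159 and 130 CPM in SP and 153, 174, 106 and 157 CPM in NSP libraries, with a log2 fold change of 0.11 (SE 0.18, edgeR adjusted p = 0.821). HSF2, a second heat shock factor, had 5 counts over the 8 libraries.

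Class A and class B J proteins, the main cochaperones of cytosolic HSP70, held no called gene. All 4 class A genes were tested, with log2 fold changes from -0.14 (DNAJA4) to 0.21 (DNAJA1). DNAJA1 was higher in SP cells in 4 of 4 pairs and its 95% interval was -0.21 to 0.62. DNAJB1 (HSP40), the J protein induced with HSP70, was at 130, 176, 164 and 155 CPM in SP and 138, 147, 150 and 136 CPM in NSP libraries. SP libraries 2 to 4 stood above all NSP libraries and SP library 1 below them, with a log2 fold change of 0.13 (SE 0.14, edgeR adjusted p = 0.722). DNAJB7, a gene without introns known mainly from testis, had the lowest value of class B: 22.3, 28.8, 22.7 and 33.9 CPM in SP and 41.5, 46.4, 36.4 and 24.2 CPM in NSP libraries. It was lower in SP cells in 3 of 4 pairs, with a log2 fold change of -0.48 (SE 0.23, edgeR adjusted p = 0.316). DNAJB7 had 166 counts per kb and crosses exons of XPNPEP3 on the other strand by 612 bases. XPNPEP3 had 18 counts, or 1.88 per kb. The part of XPNPEP3 reads in the DNAJB7 counts was not tested. As the strand setting of the counting is not given, the low XPNPEP3 count does not show that this part is small.

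Class C J proteins share only the J domain and serve many compartments. Of 29 genes, 17 were tested, 14 with a positive and 3 with a negative log2 fold change. Over all tested genes these counts were 4819 and 4490. DNAJC16 had the lowest log2 fold change among the tested members: 18, 20.8, 17.3 and 14.0 CPM in SP and 35.1, 19.3, 19.1 and 33.2 CPM in NSP libraries. NSP libraries 1 and 4 stood well above the rest while NSP 2 and 3 lay among the SP libraries. The log2 fold change was -0.60 (SE 0.26, 95% interval -1.15 to -0.05, edgeR adjusted p = 0.257, exact permutation p = 0.114). DNAJC5, the cysteine string protein of secretory vesicles, was higher in SP cells in 4 of 4 pairs, at 64.7 ± 6.73 CPM (SD, n = 4) against 52.6 ± 3.52 CPM (SD, n = 4), with a log2 fold change of 0.30 (edgeR adjusted p = 0.379). DNAJC7, DNAJC8, DNAJC14 and DNAJC2 had log2 fold changes between -0.04 and 0.04.

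The 31 members without a test had at most 17 counts in a library and at most 85 in all. The 6 with none were DNAJC25-GNG10, DNAJC5B, DNAJC5G, HSPB2, HSPB2-C11orf52 and HSPB3. A count of 0 or a few at this depth does not show that a gene is silent. DNAJC6 (auxilin), which uncoats clathrin vesicles with HSP70, had 4, 9, 12 and 7 counts in SP libraries 1 to 4 and 3, 3, 3 and 2 counts in NSP libraries 1 to 4. DNAJC24, a J protein of diphthamide synthesis, had 3, 5, 9 and 8 counts in SP and 4, 1, 2 and 2 counts in NSP libraries. Both were picked out after their values were seen, and in CPM every SP library of each lay above every NSP library, the DNAJC24 groups by a narrow gap (2.16 CPM in SP library 1 and 2.13 CPM in NSP library 1). Neither was called in a fit without a filter on low counts. How often genes with so few counts separate in this way was not counted, so these 2 cannot be set apart from other such genes. The testis HSP70 HSPA1L (77 counts), HSPA12B (66 counts) and DNAJB5 (85 counts) had more, spread over both groups.

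The wider chaperone network was read from a list of 69 genes: HSP90 and HSP70 cochaperones, chaperonin and prefoldin subunits, ER folding enzymes and other proteostasis genes. Of 57 tested, 0 were called higher and 1 lower by edgeR, 2 were higher at an unadjusted p under 0.05, DESeq2 and limma voom also called 0 higher, and the median log2 fold change was 0.02. The called gene was BAG2, an exchange factor that holds back the ubiquitin ligase CHIP. It was at 57.6, 91.8, 64.4 and 74.3 CPM in SP and 92, 150.1, 161 and 131 CPM in NSP libraries. The groups did not overlap, with NSP library 1 just above SP library 2. The log2 fold change was -0.89 (SE 0.20, edgeR adjusted p = 0.0200), and the call was lost without SP 1, NSP 2 or NSP 3. BAG2 crosses exons of RAB23 on the other strand by 2842 bases. RAB23 had 28.9 counts per kb against 204 for BAG2, and a log2 fold change of 0.09 (edgeR adjusted p = 0.924). The part of RAB23 reads in the BAG2 counts was not tested, and the lower RAB23 count does not show that it is small. With the replicate block SIL1, the exchange factor of HSPA5, was also called (log2 fold change 0.64, edgeR adjusted p = 0.0480), higher in SP cells in 3 of 4 pairs. Of 12 chaperonin and prefoldin subunits and 12 ER folding genes tested, none was called.

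HSPA8 and HSPH1 differed by replicate number. Each number was compared with the other 3 over both groups in the fit with the block, a comparison chosen after the values were seen. Replicate 2 was lower for HSPH1 (log2 difference -0.88, SE 0.18, edgeR adjusted p = 0.00113) and for HSPA8 (-0.72, SE 0.17, adjusted p = 0.00648), which were the 2 members called for that number, where 1.15% of all tested genes were called. HSP90AA1 (-0.54, adjusted p = 0.0726), DNAJA1 (-0.50, adjusted p = 0.193) and HSP90AB1 (-0.43, adjusted p = 0.218) were lower in replicate 2 without passing the edgeR test, and DNAJB1 was not (0.15, adjusted p = 0.867). HSPA8 and HSPH1 were also the 2 members called for replicate 1, both higher, at 0.48 (edgeR adjusted p = 0.0395) and 0.51 (adjusted p = 0.0436), beside 5.88% of all tested genes, a share above that of the members. Whether the replicate number moved these genes more than the population did was not tested.

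Replicate 3 differed for 3 of the 43 tested members, a share near the 7.14% of all tested genes. DNAJB9 was lower there (log2 difference -1.35, edgeR adjusted p = 0.0367), HSPA9 was lower (-0.70, adjusted p = 0.0106) and HSPB1 higher (0.45, adjusted p = 0.0346). Replicate 4 differed for 2 of the 43 tested members, also near the 3.29% of all tested genes. These were DNAJC21, a J protein of ribosome assembly, at 0.73 (edgeR adjusted p = 0.0140) and HSPB7 at 1.86 (adjusted p = 3.51e-04). What the numbers stand for is not given in the labels.

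**Figure D4:**
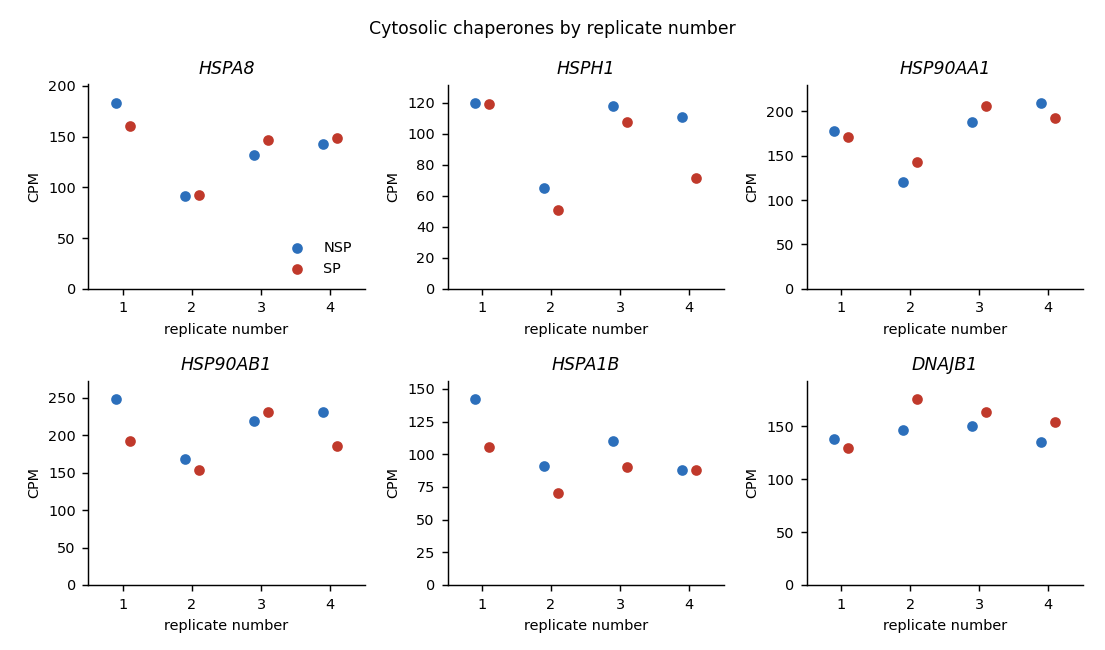
CPM of 6 cytosolic chaperones by replicate number, with NSP in blue and SP in red. For HSPA8, HSPH1, HSP90AA1 and HSP90AB1 both points of replicate 2 are the lowest of their group, while DNAJB1 has no such dip.

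Counts on the other strand stood beside many members. The strand setting of the counting is not given in the sources used here. Among lncRNAs with 50% or more of their exons facing an oppositely transcribed protein-coding gene, the lncRNA had more counts per kb in 524 of 593 pairs (88.4%). Exons of 31 of the 74 members, 20 of them tested, cross exons of an oppositely transcribed gene. In 22 of these pairs with at least 100 counts, the opposite gene had more counts per kb in 14 (63.6%). DNAJC8, a splicing-related J protein, had 95.1 counts per kb, and AL353354.2 across it had 20969. DNAJC9, a histone chaperone, had 45.4 counts per kb, and FAM149B1 across it had 495, with a log2 fold change of -0.55 (edgeR adjusted p = 0.0565). FAM149B1 was called lower in SP cells under the replicate block (-0.54, adjusted p = 0.00158), and by DESeq2 (adjusted p = 0.0122), and its groups did not overlap. The reverse held for HSP90AA1, with 445 counts per kb against 10.8 for WDR20, for HSP90B1 with 147 against 32.0, and for DNAJB1 with 237 against 101. For members of either kind the level given above may hold reads of another transcript or miss reads of the member. The same goes for members without an opposite-strand gene, and neither was tested. DNAJB13, a sperm J protein with 30 counts, lies across the lncRNA ENSG00000255847, which had 263 counts and a log2 fold change of -1.13 (edgeR adjusted p = 0.0399).

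**Figure D5:**
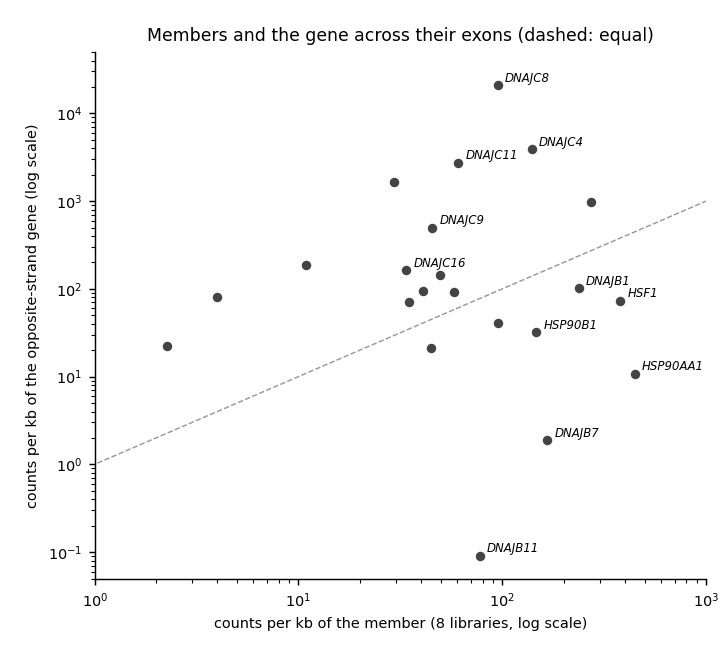
Counts per kb over 8 libraries of the members (x axis, log scale) and of the gene with the largest exon overlap on the other strand (y axis, log scale), for pairs with at least 100 counts. Points above the dashed line of equality, such as DNAJC8, DNAJC4 and DNAJC11, are members whose opposite-strand gene had more counts per kb.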

How the data were processed

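RNA-seq of 4 SP and 4 NSP libraries of J82 cells was analysed from 1 table of raw counts per gene. The authors prepared mRNA libraries with the KAPA mRNA HyperPrep kit, aligned single-end 50-base reads to hg19 with STAR and assigned them to gencode version 19 genes with featureCounts, and the deposited counts are not normalized. Symbols, positions and exons came from GENCODE version 44 mapped to GRCh37, which matched 55538 genes (96.1%). Genes without a match held 4.06% of counts.

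Counts were tested with edgeR 4.0.16 (R 4.3.3; TMM, filterByExpr at 10 counts and 15 in total, glmQLFTest) over all 8 libraries, with Benjamini-Hochberg adjustment over 9309 genes and a call at an adjusted p under 0.05 and a fold change over 1.3. The script was tested on simulated counts. Replicate number was left out of the model. Deviations of equally numbered SP and NSP libraries from their group means correlated at 0.38, 0.20, 0.32 and 0.32 in pairs 1 to 4, so that equal numbers were treated as pairs, and a blocked fit was run as an alternative. No libraries of a group agreed within sampling noise (chi-square per degree of freedom 5.63 to 13.5). Other alternatives were DESeq2 1.42.0, limma 3.58.1 voom, other scalings and filters, leaving out each library, mitochondrial genes or genes with opposite-strand exon overlap. For named members, log2(CPM + 1) was set against every regrouping of the libraries (exact permutation, two-sided, scipy 1.17.1). Promoter windows came from RefSeq (GRCh38.p14).

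The members and lists were chosen with earlier results of these data known. Named genes are 16 main chaperones and factors, each called member, each tested member without overlap, and the 3 highest and 3 lowest log2 fold changes. Other genes were picked after their values were seen.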

Additional observations from a re-analysis of the deposited data

Results flagged for a closer look

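In 40 groups of 4 libraries, 1 for each population and each named and tested member, the gap between the most extreme library and its nearest neighbour was divided by the range of the group and set against Dixon's 95% critical value for 4 samples. There were 2 groups above it, and chance alone flags about 2. HSPA4 in NSP cells had a ratio of 0.854, with replicate 4 at 60.2 CPM and the other 3 libraries between 69.5 and 71.1 CPM. HSPH1 in NSP cells had a ratio of 0.834, with replicate 2 at 65.2 CPM and the others between 111 and 120 CPM. In SP cells HSPH1 was also lowest in replicate 2, at 50.9 CPM.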

How the results depend on the processing

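Results were recomputed under 17 alternatives, 8 of which left out 1 library. The 19 named and tested members other than DNAJC4 were called in 0 of 311 values, and 20 values over 8 members had the other sign. Members with too few counts for a test, 31 of 74, could not be compared at this depth. DNAJC4 kept a positive log2 fold change in all alternatives that tested it. The number of members called higher was 1, and 0 to 1 when each library was left out, and 0 without genes that cross an exon on the other strand, where DNAJC4 was not tested. Members called lower stayed at 0. The replicate block called 548 genes higher and 652 lower against 152 and 189 without it, called 1 network gene higher, and changed no call of a member. Without a filter on low counts 303 genes were called higher and 381 lower. Without genes across other-strand exons these were 59 and 62, with 0 network genes called lower, and BAG2 was not tested there. Leaving out each library gave 69 to 164 genes called higher and 89 to 181 lower, 0 to 1 network genes called lower, and a median of the tested members from 0.0025 to 0.10. HSPA8 turned positive under limma voom (0.013), the replicate block (0.0077) and upper-quartile normalization (0.015), as did HSPD1 under upper-quartile normalization (0.00066). Without single libraries, the lowest and highest log2 fold changes were -0.16 and 0.17 for HSPA8, -0.096 and 0.038 for HSPD1, -0.11 and 0.13 for HSP90AA1, -0.092 and 0.27 for HSP90B1, -0.019 and 0.20 for HSF1, -0.11 and 0.19 for HSPA9, -0.48 and 0.042 for HSPE1, and -0.042 and 1.32 for HSPB7. The cause of these changes was not tested.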
